A study of Mus musculus with 48 samples.

Results

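Joining of the Jκ1 signal end was compared between G0-G1-arrested Ku70-/- vAbl cells that received the DNA ligase inhibitor L67 and the same cells that received DMSO. The 6 libraries, 3 with L67 and 3 with DMSO, were taken by their labels (genotype Ku70-/-, bait JK1SE, treatment) from the 48 libraries of the series. vAbl cells are mouse progenitor B cells transformed with the Abelson kinase. STI-571 blocks that kinase, arrests the cells and permits the RAG1/2 endonuclease to cut the Igκ locus on chromosome 6. All 6 samples received 3 µM STI-571 for 96 h, and L67 was given at 5 µM on the same day as STI-571. The Ku70-/- line is a single clone, so its libraries are repeats of that clone and not of the genotype. The labels do not say whether replicates came from separate cultures; p-values measure the spread between these libraries, which may be technical. No cell type marker was available, since the libraries hold genomic DNA.

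RAG1/2 cuts between a gene segment and its recombination signal sequence (RSS). Each cut leaves a coding end (CE), which carries the gene segment, and a signal end (SE), which carries the RSS with its heptamer at the tip. In normal cells nonhomologous end joining seals coding end to coding end and signal end to signal end, and the signal joint keeps both heptamers whole. Ku binds the broken ends at the start of that pathway. Without Ku70 the ends are sealed by alternative end joining (A-EJ), which trims ends before joining and also makes hybrid joints, in which a signal end is sealed to a coding end. DNA ligase III, with its partner XRCC1, and DNA ligase I are the ligases associated with A-EJ, and L67 is known as an inhibitor of both. The comparison asks how signal ends were joined by A-EJ in cells given L67. Whether either ligase was inhibited in these cells was not measured. The paper reports that DNA ligase I protein was nearly absent late in STI-571 arrest, while DNA ligase III fell only slightly. It proposes DNA ligase III as the main ligase of A-EJ in arrested cells. HTGTS-JoinT-seq reads outward from a fixed bait, here the Jκ1 signal end, and each junction gives the place in the genome (the prey) that was joined to it.

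The bait is the RSS upstream of Igkj1 (ENSMUSG00000076604.1, one of the Jκ joining segments). It is shown with its heptamer in capitals because the heptamer is the tip that is trimmed in the joints below. It lies at chr6:70672517-70672555 on the plus strand of mm9, between the Vκ genes and Igkj1, outside any exon, and the Igkj1 segment follows at chr6:70672556-70672593.
Jκ1 signal end: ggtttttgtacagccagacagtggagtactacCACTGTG
Igkj1 coding segment: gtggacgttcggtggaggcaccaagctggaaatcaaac

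The preys were assigned to 137 Vκ break sites, 92 of them beside an annotated Vκ gene. At 63 sites, called deletional, the Vκ gene points the same way as Jκ1 and joining deletes the interval between them. The other 74 sites are inversional, and ordinary joining inverts the interval. The signal ends of the 4 most used sites are shown 5′ to 3′ from the break, with the heptamer in capitals. Igkv1-135 is deletional (chr6:67560503-67560530, plus strand). The other 3 are inversional and lie on the minus strand: Igkv12-44 (chr6:69764597-69764624), Igkv4-50 (chr6:69650733-69650760) and Igkv6-32 (chr6:70023990-70024017). Each of these RSSs starts at the first base past the annotated end of its V gene, outside its exons.
Igkv1-135: CACAGTGattcagacccgaacaaaaact
Igkv12-44: CACAGTGattcaagccatgacataaacc
Igkv4-50: CACAGTGatacagactggaacaaaaacc
Igkv6-32: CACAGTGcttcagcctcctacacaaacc

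Sequences of 5 kinds of joint were drawn from the reads, each as the junction of its class found in most libraries, because they show what the classes below mean. In each line the bait supplies the first 25 bases. In the first line the capitals mark both heptamers, and in the microhomology lines they mark the bases that bait and prey share, where the joint cannot be placed.
SE-SE joint at Igkv1-135, no base lost: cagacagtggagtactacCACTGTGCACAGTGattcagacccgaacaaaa
SE-SE joint at Igkv1-135, direct, 14 bases lost: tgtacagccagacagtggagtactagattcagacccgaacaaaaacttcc
SE-SE joint with 5 bp of microhomology: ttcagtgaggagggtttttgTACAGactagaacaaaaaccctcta
Hybrid joint at Igkv12-44, direct, 18 bases lost: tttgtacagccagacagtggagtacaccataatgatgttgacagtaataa
Hybrid joint at Igkv4-57-1 with 8 bp of microhomology: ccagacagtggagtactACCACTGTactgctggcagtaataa
The first of them, the precise signal joint, was read 3652, 191 and 173 times in the DMSO libraries and 179, 65 and 193 times in the L67 libraries. The third lies at a site with no annotated gene (prey base 69581633 of chromosome 6) and lost 39 bases in all. The last lost 19 bases in all, 1 of them from the bait. All 5 junctions were found in all 6 libraries.

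Libraries held 176513 to 198488 junctions out of 500000 read pairs each. DMSO replicate 1 stood apart from the other libraries. Its Vκ junctions were as many as in the other libraries, but only 954 of them were distinct, where junctions are distinct if they differ in the position or strand of the prey, in the last bait base or in overlap or gap. Each of its distinct junctions was read 149 times on average, against 9.93 to 13.9 times in the other 5 libraries, and its 100 most read junctions made up 86.9% of its Vκ junctions against 7.82% to 10.4%. It shared 127 to 185 distinct Vκ junctions with each other library, and the others shared 2130 to 2862 with one another. As a share of its own distinct junctions this was 13.3% to 19.4%. Among the others the share was 15.7% to 21.3%, so the lower counts go with its fewer distinct junctions. For the main results, values without it or with each distinct junction counted once are therefore given beside the values of all 3 DMSO libraries. A group of 3 against a group of 3 cannot give an exact permutation p below 0.1 (0.2 for 3 against 2). A difference is therefore called only where the groups do not overlap. Non-overlap in either direction arises by chance in these same shares of splits, so it is likelier when a library is left out. Over the 15 library measures the Benjamini-Hochberg adjusted p was 0.25 or higher for all, so no difference passed a threshold of 0.05.

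Vκ junctions as read, with copies kept, overlapped between the groups. Copies of a joint are counted here, so this is not a number of separate joints. V-J efficiency, the share of read pairs that hold a Vκ junction, was 28.4%, 28.5% and 29.6% with DMSO and 30.3%, 29.5% and 27.8% with L67. The means were 28.8% ± 0.695 and 29.2% ± 1.25 (SD, n = 3 each), and the groups overlapped (exact two-sided permutation p = 0.8). Without DMSO replicate 1 the difference was 0.117 percentage points. Taken as a share of all junctions, Vκ junctions were lower with L67 by a difference of -2.21 percentage points, with overlap (exact permutation p = 0.3). Counted once, distinct Vκ junctions per read pair were higher with L67 by 1.10 percentage points, and by 0.36 without DMSO replicate 1, also with overlap (exact permutation p = 0.2 and 0.4). The background was low in cycling Ku70-/- cells, in which RAG1/2 is largely inactive. Their 3 signal end libraries had V-J efficiencies of 0.805%, 0.397% and 0.805%.

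Distinct Vκ junctions numbered 954, 13337 and 10693 with DMSO and 14418, 13001 and 14019 with L67. The groups overlapped (exact permutation p = 0.2). Most of the distance between the means came from DMSO replicate 1, and without it the L67 mean was higher by 0.21 on the log2 scale, still with overlap. Vκ junctions reached 116 and 114 sites in DMSO replicates 2 and 3 and 122, 122 and 118 sites with L67, against 89 sites in DMSO replicate 1.

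**Figure D1:**
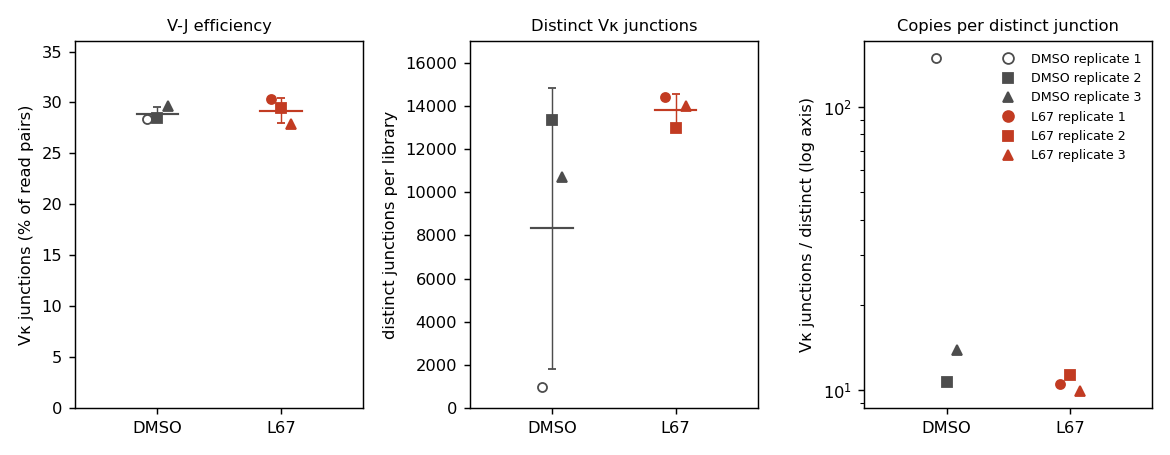
Points are the 3 DMSO (grey) and 3 L67 (red) libraries of arrested Ku70-/- cells with the signal end bait; bars and whiskers in the first 2 panels are means and SD. V-J efficiency in percent of read pairs overlapped between groups, while DMSO replicate 1 (open circle) held 954 distinct Vκ junctions, each read 149 times on average (right, log axis).

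Hybrid joints were more frequent with L67. SE-SE joints outnumbered hybrid joints by a ratio of 1.10, 1.11 and 1.09 with DMSO, and the ratio was 0.907, 0.908 and 0.990 with L67. The groups did not overlap, with every L67 library below every DMSO library and below an even ratio. The means were 1.10 ± 0.0101 and 0.935 ± 0.0477 (SD, n = 3 each), a difference of -0.23 on the log2 scale (exact permutation p = 0.1). As a share, hybrid joints were 47.7%, 47.4% and 47.9% of Vκ joints with DMSO and 52.4%, 52.4% and 50.3% with L67. Leaving out DMSO replicate 1, the log2 difference was also -0.23. With each distinct junction counted once the ratios were 1.21, 1.05 and 1.07 against 0.943, 0.958 and 0.979, again without overlap.

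The ratio differed strongly with the orientation of the site, in both groups. At deletional sites an SE-SE joint closes the excised circle and a hybrid joint inverts the interval. SE-SE joints outnumbered hybrid joints there by 5.94, 2.90 and 2.68 with DMSO and by 2.31, 2.19 and 2.35 with L67, and the groups did not overlap. The hybrid share at these sites was 14.4%, 25.6% and 27.2% with DMSO and 30.2%, 31.3% and 29.8% with L67. At inversional sites the geometry is reversed, and the ratio was 0.588, 0.722 and 0.693 with DMSO and 0.581, 0.594 and 0.646 with L67. DMSO replicate 1 lay inside the L67 range there; without it the groups were apart. Counted once, the inversional ratios were 0.729, 0.732 and 0.744 against 0.656, 0.660 and 0.684, and the groups did not overlap.

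Joining to either kind of end in the orientation that closes an excision circle made up 63.4% to 70.1% of Vκ joints with DMSO and 64.0% to 65.4% with L67. These ranges overlapped. The share of junctions at inversional sites was 66.9% ± 1.82 with DMSO and 66.8% ± 0.691 with L67 (SD, n = 3 each, exact permutation p = 0.9).

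**Figure D2:**
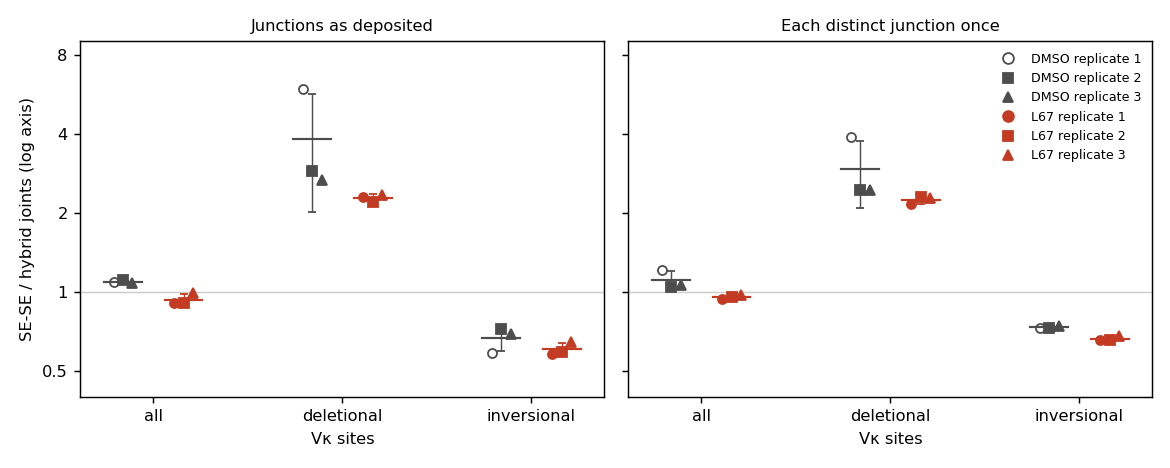
Ratio of SE-SE to hybrid Vκ joints per library (log axis) at all, deletional and inversional sites, as deposited (left) and with each distinct junction counted once (right); bars and whiskers are means and SD of 3 libraries. The L67 libraries lie below every DMSO library over all sites (0.907 to 0.990 against 1.09 to 1.11, left) and at deletional sites.

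The ratio was lower with L67 among the more trimmed preys. Among preys 11 to 100 bp from the break it was 0.895, 0.782 and 0.796 with DMSO and 0.653, 0.678 and 0.722 with L67, without overlap. Among preys within 10 bp it was 1.30, 1.55 and 1.48 with DMSO and 1.33, 1.28 and 1.43 with L67. Here DMSO replicate 1 again lay within the L67 range, and replicates 2 and 3 lay above it.

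Preys lay farther from the Vκ break with L67. Among junctions within 100 bp of a break, 56.2%, 52.0% and 51.5% lay within 10 bp of it with DMSO and 46.1%, 46.2% and 47.1% with L67. Every L67 library was below every DMSO library. The means were 53.2% ± 2.54 and 46.4% ± 0.576 (SD, n = 3 each), a difference of -6.79 percentage points (exact permutation p = 0.1) that was -5.33 without DMSO replicate 1. Counted once, the shares were 49.6%, 41.7% and 42.9% with DMSO and 39.6%, 38.7% and 38.2% with L67. With a narrower window of 5 bp the groups overlapped and the difference was -1.58 percentage points.

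Both kinds of prey showed it. Signal preys, which carry the Vκ RSS, lay within 10 bp in 60.5%, 60.0% and 58.9% of SE-SE joints with DMSO and in 55.2%, 54.3% and 55.5% with L67. Coding preys, which carry the Vκ gene, lay within 10 bp in 51.3%, 43.1% and 43.5% of hybrid joints with DMSO and in 37.7%, 38.7% and 38.7% with L67. Neither showed overlap. The median prey lay 8 to 9 bp from the break in SE-SE joints with DMSO and 10 bp in every L67 library. In hybrid joints it lay 10, 13 and 13 bp from the break with DMSO and 15, 15 and 14 bp with L67.

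The bait end was also shorter. It was untrimmed in 11.4%, 12.2% and 11.5% of Vκ joints with DMSO and in 9.60%, 10.2% and 9.89% with L67. The groups did not overlap, and the difference of the means was -1.79 percentage points (11.7% ± 0.458 against 9.89% ± 0.291, SD, n = 3 each, exact permutation p = 0.1). It was -1.95 without DMSO replicate 1. With each distinct junction counted once it was -0.95, without overlap. With only distinct junctions of at least 2 reads the difference was -0.452 and the groups overlapped (exact permutation p = 0.4). Over 30 bases were missing from the bait end in 9.50%, 13.0% and 13.6% of joints with DMSO and in 17.2%, 14.8% and 16.1% with L67. The mean loss from the bait was 12.1, 12.9 and 13.3 bases with DMSO and 14.8, 14.1 and 14.3 bases with L67. Counted once, it was 14.0, 15.1 and 15.1 bases against 15.9, 15.8 and 16.0 bases. The longest losses could not be measured on this side, since a read must still hold part of the bait.

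Joints in which both ends had lost more than 10 bases made up 25.9%, 31.6% and 31.6% of Vκ joints with DMSO and 36.9%, 36.8% and 35.8% with L67. Joints in which both ends lay within 10 bp made up 33.1%, 34.5% and 33.0% with DMSO and 29.3%, 30.4% and 29.2% with L67. Neither pair of groups overlapped, counted once or as deposited. Losses of both ends together had a median of 23, 22 and 23 bases with DMSO and 25, 25 and 24 bases with L67.

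The precise signal joint, the usual product of nonhomologous end joining, was rare in both groups. SE-SE joints with no base lost were 9.93%, 3.46% and 3.32% of SE-SE joints with DMSO and 2.82%, 2.43% and 2.62% with L67. The high value of DMSO replicate 1 rested on few distinct joints, among them the precise Igkv1-135 joint printed above. Counted once, precise joints were 1.15%, 1.10% and 1.05% of SE-SE joints with DMSO and 0.929%, 0.975% and 0.865% with L67. The groups did not overlap by either count.

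**Figure D3:**
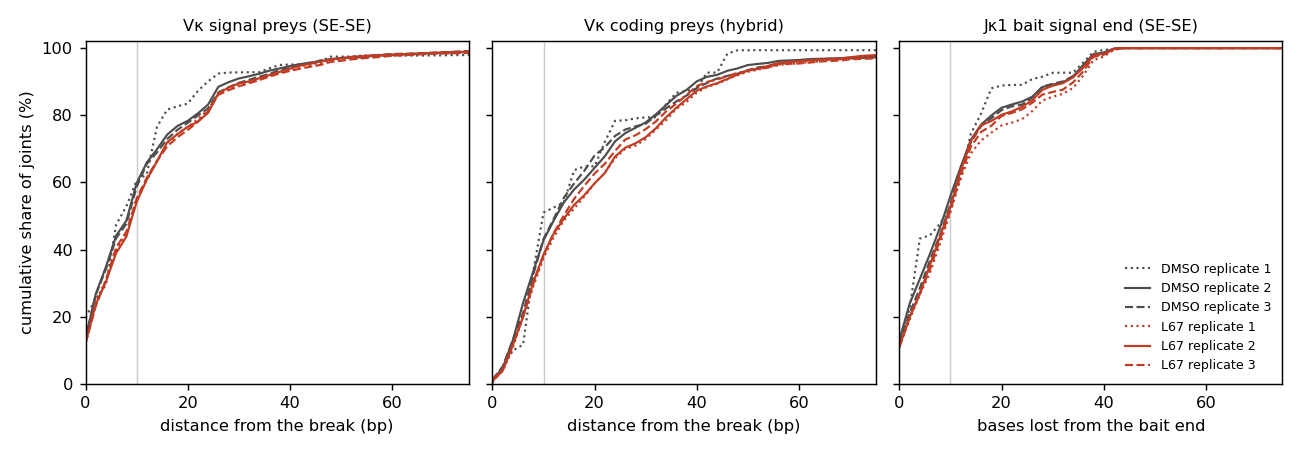
Cumulative share of joints (percent) against the distance of the prey from the Vκ break in bp, for signal preys (left) and coding preys (middle), and against bases lost from the bait end in SE-SE joints (right); each line is 1 library. At 10 bp (grey line) the 3 L67 lines lie below the 3 DMSO lines for signal preys and for coding preys.

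The difference in trimming was also read site by site. Of 101 sites with at least 50 junctions on average over the 6 libraries, 88 had junctions in all 6 libraries. At 50 of the 88 the mean share within 10 bp was lower with L67, and at 38 it was higher. Without DMSO replicate 1 it was lower at 71 of the 101 and higher at 30. The groups did not overlap at 16 sites (18.2%) with lower L67 values and at 2 sites (2.27%) with higher values. Counted once, they did not overlap at 19 (21.6%) lower and 1 (1.14%) higher. With DMSO replicate 1 left out all 101 sites could be read. The groups did not overlap at 28 (27.7%) lower and 5 (4.95%) higher, but non-overlap is likelier by chance there. At Igkv12-44 the share was 99.9%, 58.0% and 54.6% with DMSO and 48.1%, 47.5% and 48.0% with L67. At Igkv12-46 it was 88.6%, 61.8% and 64.3% with DMSO and 56.9%, 56.2% and 58.8% with L67. At Igkv6-32 the groups overlapped, with 62.9%, 54.8% and 57.5% against 50.2%, 54.6% and 58.0%. Counted once, the groups at Igkv12-44 overlapped too, with 83.3%, 40.4% and 43.9% against 37.8%, 38.9% and 40.6%. Those at Igkv12-46 did not, with 69.7%, 43.9% and 40.2% against 37.7%, 35.7% and 38.3%.

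The hybrid share was read at the same sites. Its mean was higher with L67 at 51 of the 88 sites and lower at 37, and without DMSO replicate 1 at 67 and 34 of the 101. The groups were apart at 7 of 88 sites (7.95%) with higher L67 values and at 4 sites (4.55%) with lower values. Counted once, they did not overlap at 9 (10.2%) higher and 0 (0%) lower. Leaving out DMSO replicate 1 gave 13 of 101 (12.9%) higher and 7 (6.93%) lower, where non-overlap is likelier by chance. Igkv12-41 was taken as an example after its values were seen. Its hybrid shares were 56.9%, 56.6% and 51.3% with DMSO and 61.3%, 65.8% and 62.5% with L67, without overlap. Igkv1-135 had 3.19%, 16.0% and 21.7% with DMSO and 19.5%, 26.9% and 25.0% with L67, with overlap.

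As deposited, the shares of direct joints, of joints with microhomology over 1 bp and of insertions overlapped between the groups. Direct joints, with neither overlap nor insertion, were 60.5%, 56.6% and 57.5% of Vκ joints with DMSO and 56.7%, 56.0% and 55.1% with L67. The groups overlapped (58.2% ± 2.06 and 55.9% ± 0.804, SD, n = 3 each, exact permutation p = 0.2). In SE-SE joints the direct share was 54.0%, 59.1% and 58.2% with DMSO and 58.5%, 56.8% and 56.6% with L67. In hybrid joints it was 67.6%, 53.8% and 56.6% with DMSO and 55.0%, 55.2% and 53.6% with L67. Counted once, direct joints made up 31.4%, 49.4% and 48.1% of Vκ joints with DMSO and 49.1%, 49.6% and 48.9% with L67.

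Microhomology-mediated joints, with more than 1 bp shared by bait and prey, were 22.2%, 20.0% and 20.3% of Vκ joints with DMSO and 20.3%, 21.3% and 22% with L67. The means were 20.8% ± 1.23 and 21.2% ± 0.864 (SD, n = 3 each, exact permutation p = 0.7). Without DMSO replicate 1 the groups did not overlap and the difference was 1.10 percentage points. Counted once without that replicate the difference was -0.678 percentage points, so its direction depended on whether copies were kept.

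By length, a 1-bp overlap was the most frequent, at 16.7%, 21.5% and 20.9% of joints with DMSO and 21.3%, 21.1% and 21.2% with L67. Overlaps of 2 bp made up 9.45% to 11.8% with DMSO and 9.91% to 10.4% with L67. Overlaps of 3 bp made up 3.46% to 4.73% with DMSO and 4.71% to 5.75% with L67, those of 4 bp 1.88% to 3.51% and 2.01% to 2.19%, and those of 5 bp or more 3.40% to 3.57% and 3.43% to 4.33%. The groups overlapped at each of these lengths over all Vκ joints. In SE-SE joints alone the groups did not overlap at 3 bp, with 4.80%, 5.22% and 5.38% against 5.64%, 6.36% and 6.48%, but they overlapped when each distinct junction was counted once.

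Microhomology was also read by trimming class. Overlap bases count as kept on both ends here, so joints with microhomology fall more readily into the less trimmed class. The contrast between the classes is therefore partly built in, and only the groups within a class are compared. Where both ends lay within 10 bp, overlaps over 1 bp made up 19.7%, 24.8% and 24% with DMSO and 24.4%, 26.6% and 26.2% with L67. Where both ends had lost over 10 bases, they made up 12.7%, 16.1% and 16.5% with DMSO and 18.2%, 16.8% and 18.4% with L67. The second set of groups did not overlap as deposited and overlapped when counted once. As deposited, insertions made up 0.50%, 1.96% and 1.37% of joints with DMSO and 1.66%, 1.56% and 1.69% with L67 (exact permutation p = 0.6). Counted once, they made up 36.8%, 14.0% and 14.0% with DMSO and 13.1%, 13.3% and 13.2% with L67. These groups did not overlap, with L67 lower by a mean of 8.39 percentage points (exact permutation p = 0.1) and by 0.792 without DMSO replicate 1. DMSO replicate 1, with the highest share counted once, had 149 copies per distinct junction against 9.93 to 13.9 in the other libraries. Reads with sequencing errors can enter as new distinct junctions, also with a false insertion. Whether copy depth accounts for the difference was not tested, so it is not read as an effect of L67.

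**Figure D4:**
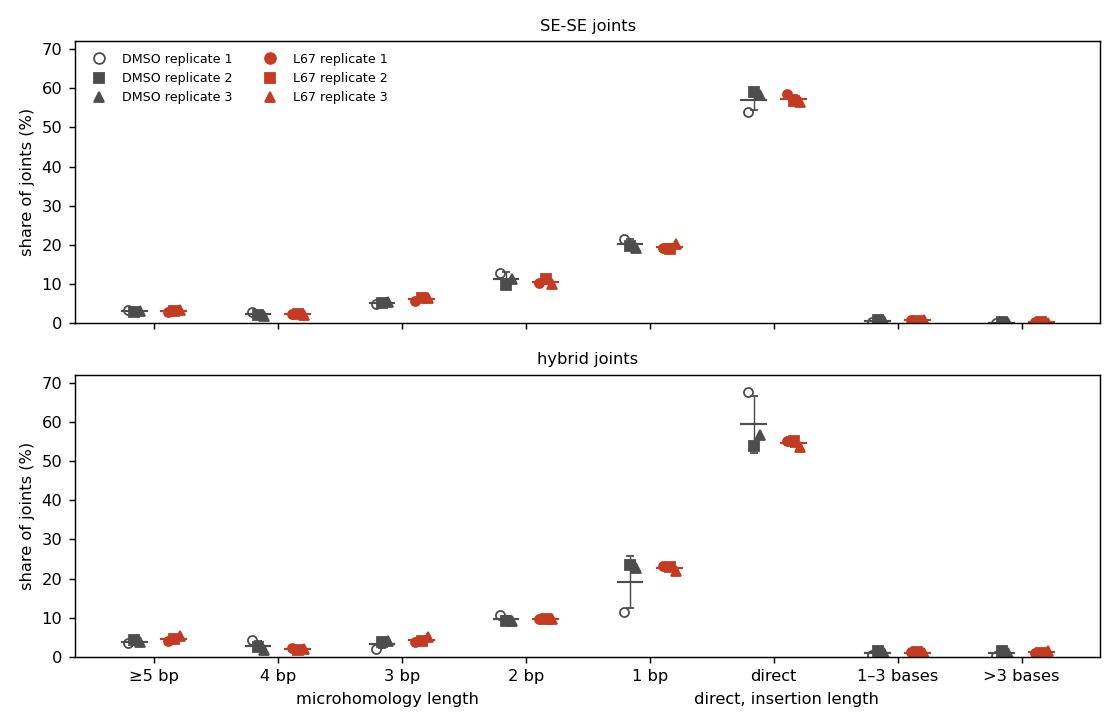
Share of SE-SE joints (top) and hybrid joints (bottom) in percent, by microhomology length, as direct joints and by insertion length; points are the 3 DMSO (grey) and 3 L67 (red) libraries, bars and whiskers means and SD. Direct joints are the most frequent class in every library, and the largest spread is that of DMSO replicate 1 (open circle) in hybrid joints.

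Vκ usage was read by sub-TAD, the chromatin domains into which the locus is divided, and by site. The proximal domain sTAD5 (sites from 69714516 to 70654172) took 37.9%, 39.9% and 40.1% of Vκ junctions with DMSO and 37.6%, 37.0% and 37.3% with L67. These groups did not overlap (39.3% ± 1.19 and 37.3% ± 0.320, SD, n = 3 each, exact permutation p = 0.1), although the nearest libraries were within 1 percentage point of each other. The adjacent sTAD4 (68890062 to 69676566) took 23.6%, 27.0% and 25.9% with DMSO and 29.6%, 29.4% and 29.0% with L67, also without overlap. The most distal domain, sTAD1-2 (67506211 to 68114918), took 17.4%, 16.0% and 17.4% with DMSO and 16.1%, 16.2% and 17.3% with L67, with overlap, and sTAD3 took 16.6% to 21.0% and 16.4% to 17.3%. Counted once, sTAD5 took 34.3%, 35.2% and 36.2% against 34.1%, 33.1% and 33.9%, and sTAD4 29.5%, 33.4% and 32.1% against 35.0%, 35.7% and 35.0%.

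No single site passed the threshold. Of the 101 sites tested with limma, 0 (0%) had a Benjamini-Hochberg adjusted p under 0.05, 1 had an unadjusted p under 0.05, and the smallest adjusted p was 0.64. That 1 site, Igkv2-137, had 34, 32 and 10 junctions with DMSO and 113, 122 and 69 with L67, and it reached the minimum of 50 only through its L67 libraries, so nothing is read from it. Without DMSO replicate 1 the count was also 0, with 5 sites at an unadjusted p under 0.05. The groups did not overlap at 10 sites (9.9%) with higher shares under L67 and at 4 sites (3.96%) with lower shares. Igkv2-137 was 1 of the 10 higher sites. With DMSO replicate 1 left out it was 1 of 13 higher sites, and 1 of the 10 lower sites reached the minimum only through the DMSO libraries. Without DMSO replicate 1, where non-overlap is likelier by chance, they did not overlap at 13 (12.9%) and 10 (9.9%) sites. With each distinct junction counted once they did not overlap at 11 (10.9%) and 10 (9.9%) sites.

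The 10 most used sites were Igkv1-135, Igkv12-44, Igkv4-50, Igkv6-32, Igkv4-80, Igkv12-46, Igkv16-104, Igkv1-88, Igkv12-41 and Igkv6-17. The most used was Igkv1-135 in the distal domain, with 6.34%, 4.92% and 5.16% of Vκ junctions with DMSO and 5.33%, 4.65% and 4.59% with L67, with overlap. Igkv12-44 took 5.23%, 4.60% and 4.26% with DMSO and 3.08%, 3.97% and 3.27% with L67. There the groups did not overlap, with a log2 difference of -0.45 ± 0.26 (SE) and an adjusted p of 0.64 in limma. Igkv16-104 took 5.67%, 2.58% and 2.86% with DMSO and 1.97%, 2.12% and 2.40% with L67, likewise without overlap. Igkv4-50 took 3.68%, 3.07% and 3.37% with DMSO and 3.51%, 3.35% and 3.56% with L67, and Igkv6-32 took 2.18%, 3.63% and 3.40% against 3.76%, 3.44% and 3.32%. The groups overlapped at both.

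At the remaining 5 sites of the 10, all but Igkv1-88 lay between 1.89% and 5.78% with DMSO and between 1.92% and 3.29% with L67, and the groups overlapped. Igkv1-88 showed how far DMSO replicate 1 lay from the rest, with 6.59%, 2.44% and 2.11% with DMSO and 2.04%, 2.48% and 1.5% with L67. Its share within 10 bp was 0.342%, 40.1% and 33.0% with DMSO and 17%, 32.6% and 32.7% with L67.

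Since no site passed the threshold, the 5 largest estimates in each direction are given as values. The largest positive estimates in limma were at sites where DMSO replicate 1 had 0 to 2 junctions, so their size depends on the value added before the logarithm. They were Igkv14-100 (log2 difference 3.52), Igkv10-94 (3.48), Igkv14-130 (3.35), Igkv10-95 (3.26) and Igkv17-121 (3.23). Igkv14-100 had 0, 301 and 247 junctions with DMSO and 405, 516 and 554 with L67, from 0, 45 and 24 distinct junctions against 59, 63 and 49. Igkv17-121 had 0, 125 and 187 junctions with DMSO and 433, 196 and 238 with L67, from 0, 9 and 10 distinct junctions against 29, 17 and 24. When DMSO replicate 1 was left out, these 2 sites differed by 0.83 and 0.82 on the log2 scale, and Igkv14-130 by 0.10.

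The largest negative estimates were Igkv14-126 (log2 difference -1.14), Igkv9-124 (-0.74), Igkv1-88 (-0.72), Igkv16-104 (-0.69) and Igkv8-30 (-0.69), all with an adjusted p of 0.64 in limma. Igkv9-124 took 1.58%, 0.887% and 1.13% of Vκ junctions with DMSO and 0.881%, 0.737% and 0.524% with L67, without overlap. Igkv8-30 took 5.02%, 2.09% and 1.65% with DMSO and 1.66%, 1.41% and 1.79% with L67, with overlap. With DMSO replicate 1 left out, the log2 differences were -0.21 for Igkv14-126, -0.52 for Igkv9-124, -0.21 for Igkv1-88, -0.33 for Igkv16-104 and -0.21 for Igkv8-30.

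**Figure D5:**
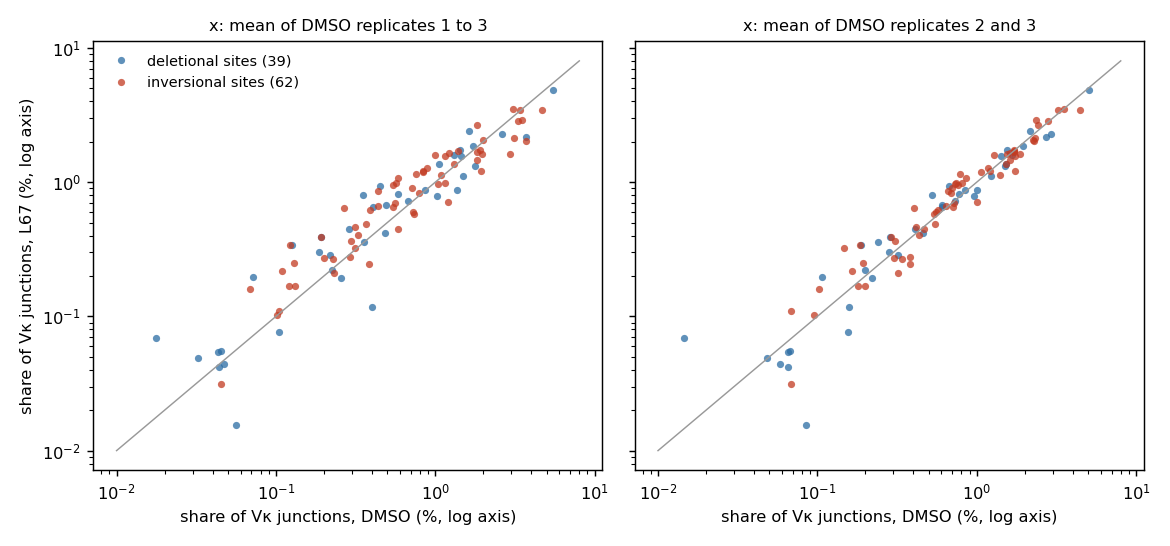
Mean share of Vκ junctions per site (percent, log axes) with L67 against DMSO, for the 101 tested sites, coloured by orientation (39 deletional, 62 inversional); the x axis averages all 3 DMSO libraries (left) or replicates 2 and 3 (right). Sites lie on both sides of the line of equal shares in both panels, and 0 of 101 passed limma's threshold.

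Many signal ends were joined within the Jκ region, up to 2 kb from the bait break in both directions. These junctions were 5.05%, 6.99% and 6.72% of read pairs with DMSO and 7.27%, 7.22% and 7.41% with L67. No overlap was seen (6.25% ± 1.05 and 7.30% ± 0.0985, SD, n = 3 each, exact permutation p = 0.1), and without DMSO replicate 1 the difference of 1.05 percentage points was 0.446. Counted once, it was 0.168 percentage points with all libraries, also without overlap, and 0.0463 without DMSO replicate 1. As a share of all junctions of a library the groups overlapped.

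Most of them rejoined the Jκ1 signal end to the Jκ1 coding end from which it had been cut. Junctions within the first 100 bases of that coding end numbered 21985, 26774 and 25942 with DMSO and 27802, 26980 and 28232 with L67, without overlap. Distinct ones numbered 240, 1404 and 1300 with DMSO and 1504, 1409 and 1436 with L67. The Jκ1 coding end lay within 10 bp of the break in 62.2%, 33.9% and 32.1% of them with DMSO and in 27.9%, 32.8% and 29.2% with L67, with overlap. Counted once, these shares were 38.3%, 24.9% and 23.9% against 21.9%, 22.1% and 21.9%, without overlap.

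Coding ends of the downstream segments Jκ2 to Jκ5 were joined 1537, 2958 and 2830 times with DMSO and 4032, 3746 and 2942 times with L67, with overlap. Counted once, they numbered 27, 296 and 265 with DMSO and 361, 339 and 329 with L67, without overlap. Jκ2 and Jκ4 received most of them, with 680 to 1175 and 797 to 1369 junctions with DMSO and 1086 to 1670 and 1218 to 1720 with L67. Jκ3, which is not functional in mice, received 0, 4 and 49 with DMSO and 104, 35 and 75 with L67.

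Junctions elsewhere on chromosome 6 numbered 5775, 8606 and 8263 with DMSO and 8891, 8153 and 8660 with L67. Of these, 4821, 4456 and 4519 with DMSO and 4268, 4067 and 3977 with L67 lay downstream of the Jκ region, toward and past the Cκ constant exon. The groups were apart there, with the L67 libraries lower. Counted once, these numbered 39, 475 and 426 against 502, 449 and 490, and the groups overlapped. Junctions in the Vκ region but away from the break sites numbered 395, 3260 and 2573 with DMSO and 3802, 3055 and 3760 with L67.

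Translocations, the junctions outside chromosome 6, numbered 3563, 1978 and 2034 with DMSO and 1781, 2621 and 1778 with L67. The groups overlapped (exact permutation p = 0.5 on the log2 scale). Distinct translocations numbered 24, 250 and 230 with DMSO and 243, 236 and 299 with L67, also with overlap. Outside the antigen receptor loci, the fullest windows of 1 Mb were taken by junctions as deposited over all 6 libraries. In DMSO replicate 1, 2 such windows held most of its translocations: 2125 junctions from 5 distinct ones at megabase 22 of chromosome 11, and 1277 from 5 at megabase 103 of chromosome 14. Neither window held a junction in any other library. The next window outside these loci, megabase 69 of chromosome 11, held 127 junctions from 5 distinct ones over 4 libraries. Chromosome M held more distinct junctions than any of these windows, 12 from 66 junctions over 5 libraries.

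A larger share of translocations reached other antigen receptor loci with L67, where RAG1/2 also cuts. The share was 1.15%, 21.2% and 20.4% with DMSO and 26.1%, 46.9% and 29.9% with L67. No library of one group reached the other (14.2% ± 11.3 and 34.3% ± 11.1, SD, n = 3 each, exact permutation p = 0.1), and without DMSO replicate 1 the difference of 20.0 percentage points was 13.5. Counted once, the share was 8.33%, 21.2% and 20.9% with DMSO and 25.1%, 34.3% and 22.7% with L67.

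Receptor locus junctions numbered 41, 419 and 415 with DMSO and 465, 1229 and 531 with L67, and most lay at Igl, the λ light chain locus on chromosome 16. Igl received 41, 392 and 389 junctions with DMSO and 423, 1099 and 441 with L67, from 2, 48 and 46 distinct junctions against 52, 77 and 60. Neither count showed overlap. Within 200 bp of Iglv1, a Vλ gene, there were 0, 143 and 184 junctions with DMSO and 74, 428 and 264 with L67. At Iglv2 there were 0, 18 and 25 against 158, 115 and 16, from 0, 1 and 2 distinct junctions against 8, 4 and 4. At Iglv3 there were 0, 39 and 14 against 13, 133 and 10, from 0, 3 and 4 distinct junctions against 3, 6 and 3, with overlap by either count. Distinct junctions at Iglv1 numbered 0, 16 and 18 against 15, 30 and 27, more than at Iglv2 in every library with any. Tcra/Tcrd on chromosome 14 received 0, 18 and 26 junctions with DMSO and 34, 127 and 33 with L67, from 0, 2 and 2 distinct junctions against 7, 3 and 4. Igh received 0, 9 and 0 against 8, 3 and 57, and Tcrg received 0 in all 6 libraries. Since 1 joint can be read many times, a count of 0 sets no firm limit.

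Translocations outside antigen receptor loci numbered 3522, 1559 and 1619 with DMSO and 1316, 1392 and 1247 with L67. The groups were apart as deposited, with the L67 libraries lower, and overlapped when counted once, with 22, 197 and 182 against 182, 155 and 231. Of all translocations, microhomology over 1 bp made up 62.3%, 15.0% and 20.4% with DMSO and 24.3%, 19.2% and 36.1% with L67, and counted once 20.8%, 26.1% and 19.6% against 21.1%, 21.6% and 28.2%.

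The effect of L67 was set beside that in 12 other libraries. From the Jκ1 coding end bait in the same arrested Ku70-/- cells, V-J efficiency was 18.8%, 22.4% and 21.5% with DMSO and 23.2%, 24.4% and 24.9% with L67, without overlap. The L67 effect was 0.02 from the signal end bait and 0.21 from the coding end bait on the log2 scale. The difference between these effects had an exact permutation p of 0.115 (6 libraries each), and it turned in sign with each distinct junction counted once. The share within 10 bp from the coding end bait was 51.8%, 46.4% and 44.6% with DMSO and 43.1%, 42.8% and 43.3% with L67. The difference between the effects of -6.79 and -4.51 percentage points was not called (exact permutation p = 0.595). With each distinct junction counted once that difference turned in sign. The test assumes no L67 effect in either bait. Both baits had groups apart for this share, so the p does not settle whether the effects are equal. For microhomology over 1 bp the effects were 0.399 and 2.70 percentage points, and their difference had an exact permutation p of 0.345. The groups overlapped from the signal end bait and did not overlap from the coding end bait, where L67 was higher. DMSO replicate 1 of the coding end bait also held few distinct Vκ junctions, 1589 against 8679 to 11469 in the other 5 libraries of that bait. Without it the differences between the effects were -0.12 on the log2 scale for V-J efficiency, -4.38 percentage points for the share within 10 bp and -0.609 for microhomology, with exact permutation p of 0.19, 0.26 and 0.57. The difference of -2.28 percentage points for the share within 10 bp was -0.819 without DMSO replicate 1 of the signal end bait (exact permutation p = 0.82) and -0.793 without DMSO replicate 3 of the coding end bait.

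In arrested WT cells, which join signal ends by nonhomologous end joining, the signal end bait gave V-J efficiencies of 67.6%, 64.9% and 64.9% with DMSO and 63.6%, 61.1% and 57.0% with L67, without overlap. The L67 effects of 0.02 in Ku70-/- and -0.12 in WT cells on the log2 scale differed with an exact permutation p of 0.095. WT preys lay within 10 bp in 99.6% to 99.8% of joints with DMSO and in 99.5% to 99.7% with L67. The break sites were placed at the junction peaks of arrested WT signal end libraries, these among them. The closeness of WT preys to the sites is therefore partly built in. WT bait ends were untrimmed in 95.8% to 96.1% of joints with DMSO and in 95.1% to 95.7% with L67. The effects on the share within 10 bp, -6.79 in Ku70-/- and -0.0978 percentage points in WT cells, differed with an exact permutation p of 0.095. SE-SE joints outnumbered hybrid joints in WT cells by 60.7, 60.6 and 50.9 with DMSO and 57.0, 71.7 and 50.3 with L67, with overlap, and the effects on it differed between genotypes with an exact permutation p of 0.145. None of these tests passed 0.05, and the smallest p that their 400 arrangements allow is 0.005. They assume no L67 effect in either bait or genotype. Where an effect is present, they do not settle whether the effects differ.

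L82-G17, known as an inhibitor of DNA ligase I, was given to the same cells at 25 µM. Its dose differs from that of L67, so the values are set side by side without a comparison. Its 3 signal end libraries had V-J efficiencies of 17.2%, 17.1% and 18.7%, SE-SE to hybrid ratios of 1.73, 1.74 and 1.62, shares within 10 bp of 42.7%, 45.2% and 42.1%, and 7500, 5744 and 10971 distinct Vκ junctions.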

How the data were processed

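Genomic DNA of 48 libraries was read by HTGTS-JoinT-seq. Each library was sampled by the authors to 500000 read pairs and aligned to mm9, duplicates were kept, and junctions near the bait were added; Bowtie2 is named in the submitters' processing notes. The deposited lists hold 1 junction per line, in units of position and not of a count. Counts, percentages, ratios and log2 values were made here. The lists carry no molecular barcodes, so copies of a joint are not independent. Each ± is an SD between libraries or, where marked, a limma SE. Distinct junctions are open to reads with sequencing errors, which make new ones.

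Of the 48 libraries, 24 entered the comparisons and 9 placed the sites (arrested WT, signal end bait). A site has at least 30 junctions at a position, none higher within 50 bp and CAC within 1 base, with the mm9 sequence from NCBIM37 and genes from GENCODE vM1. A junction belongs to the nearest site within 200 bp. Prey strand tells signal from coding ends, and structure was read within 20 bp of overlap or gap. Receptor loci are windows of whole megabases. Replicate numbers follow accession order and were not used to pair libraries. The labels do not say whether signal and coding end libraries came from the same DNA, and the tests between baits treat them as separate. Sub-TAD bounds were read from the study's map to the nearest gap between sites.

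The exact permutation test, two-sided, was run on differences of library means (SciPy 1.17.1). Effects were compared by exchange within bait or genotype, which assumes no L67 effect in either. A further 346 comparisons of detail, many over the same joints, had a smallest adjusted p of 0.220. Site usage was tested in limma 3.58.1, on the log2 of a site's junctions plus 1 over all Vκ junctions of the library. The fit was tested on simulated data in which every site and library had the same scatter, the median over sites of the L67 libraries. There it recovered 100% of 20 sites changed by 1 on the log2 scale among 101 and called 0 unchanged sites. With changes of 2 on that scale it called 1 unchanged site. The larger scatter of DMSO replicate 1 was not simulated. The recovery therefore does not show which changes the main fit, which holds that library, could find. Named sites are the 10 most used, the 5 largest changes each way and, elsewhere, receptor loci and the 3 fullest megabases outside them. Igkv4-57-1 and the unannotated site of the printed joints were chosen by how many libraries held the joint, and Igkv12-46 and Igkv12-41 were taken as examples after their values were seen. Igkv2-137 was named after its values were seen. The libraries and lists were chosen with earlier results of these data known.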

Additional observations from a re-analysis of the deposited data

How the results depend on the processing

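No paired analysis was possible because the labels give no replicate numbers. Direction was kept under every alternative run for the SE-SE to hybrid ratio, the share within 10 bp and the untrimmed bait end. It was also kept for sTAD5, the Jκ region and the receptor share of translocations. In the main setting the groups of these measures did not overlap. Leaving out a library could therefore neither turn their direction nor make them overlap, and only the size of the difference is read from it. Their groups overlapped only for the share within 10 bp with a 5-bp window (-1.58 percentage points), for the untrimmed bait end with distinct junctions of at least 2 reads (-0.452, chosen after seeing the data) and for the Jκ region as a share of all junctions (2.13). The cause was not tested.

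Leaving out each library in turn, V-J efficiency ranged from -0.202 to 1.03 percentage points, direct joints from -3.07 to -1.11, microhomology over 1 bp from -0.0311 to 1.10, insertions from -0.0264 to 0.701, the sTAD1-2 share from -0.871 to -0.148, the inversional share from -1.02 to 0.79 and other chromosome 6 junctions from 0.0267 to 0.31. The V-J difference turned without L67 replicate 1, microhomology without DMSO replicate 2 or L67 replicate 3, insertions without DMSO replicate 1, and the inversional share without DMSO replicate 1 or 2 or L67 replicate 3. Groups came apart for direct joints without DMSO replicate 2 or L67 replicate 1, for microhomology without DMSO replicate 1, for insertions and sTAD1-2 without DMSO replicate 2, and for other chromosome 6 junctions without L67 replicate 2. On the log2 scale, distinct Vκ junctions ranged from 0.21 to 2.11 (apart without DMSO replicate 2 or L67 replicate 2) and translocations from -0.449 (apart, without L67 replicate 2) to 0.0135 (without DMSO replicate 1). The effect differences between genotypes ranged from 0.0942 to 0.173 for V-J efficiency (exact permutation p = 0.02 without L67 replicate 3 of Ku70-/-) and from -0.395 to -0.138 for the ratio (p = 0.03 by exact permutation without WT L67 replicate 3).

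As a share of all junctions V-J efficiency differed by -2.21 percentage points, and by prey position alone distinct Vκ junctions by 1.13 on the log2 scale, without overlap. Direct joints differed by 0.222 percentage points in SE-SE joints, and microhomology of 1 bp or more by 1.91, without overlap. With each distinct junction counted once, the differences were 6.20 for direct joints, -1.45 for microhomology over 1 bp, -8.39 for insertions (apart), 1.43 for the inversional share and 1.21 (log2) for translocations. Also without DMSO replicate 1 they were 0.425, -0.678, -0.792, 0.594 and 0.105 (log2). That alternative was chosen after seeing the data. Counted once, the effect difference between baits was 0.44 (log2) for V-J efficiency and 0.204 percentage points for the share within 10 bp. Both had turned in sign. At sites with at least 10 junctions on average limma called 1 of 116 sites, an unannotated one at 68033116 with 0 junctions in each DMSO library and 25, 17 and 22 with L67, from 3, 1 and 2 distinct junctions; it passed that filter only through its L67 libraries, so the call supports nothing.

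Among named sites on the log2 scale, leaving out each library moved Igkv4-50 from -0.0206 (DMSO replicate 2) to 0.11 (DMSO replicate 1), Igkv6-32 from -0.0056 (DMSO replicate 1) to 0.364, Igkv4-80 from -0.408 to 0.315 (DMSO replicate 1) and Igkv12-46 from -0.306 to 0.0126 (DMSO replicate 1). Counted once, Igkv6-32 differed by -0.0423 and Igkv4-80 by 0.0628, and also without DMSO replicate 1 Igkv6-32 by -0.0998, Igkv4-80 by 0.168, Igkv12-41 by 0.0098 and Igkv9-124 by 0.094. The other 188 of 198 alternatives for named sites kept their direction. All 6 libraries held 500000 read pairs, but the percentages of DMSO replicate 1 rest on 954 distinct junctions read many times.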
